A study of Glycine max with 14 samples.

Results

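The last step of soybean seed coat development covered by these data runs from the heaviest seeds, of 400–500 mg fresh weight with green cotyledons, to seeds that had begun to dry. It was read from 6 of the 14 RNA-Seq libraries of the series. These are the 4 libraries of 400–500 mg (R111 and R155 from RM30-R*, R113 and R157 from RM38-*r*) and both libraries of desiccating seeds (R110 from RM30-R*, R112 from RM38-*r*), taken by their labels. Desiccating seeds had fallen back to 300–400 mg and their cotyledons were turning yellow. Each desiccating group was thus 1 library, and each group at 400–500 mg was 2, which the study calls biological replicates and describes as separate RNA extractions and sequencing runs. The labels do not say whether they came from different plants, so that p-values measure only the spread between these libraries.

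Both lines are isolines in the Clark background with the *i* and *T* alleles, and were grown in a greenhouse. RM30-R* is a stable black revertant derived from a mutable line, and its *R** allele still carries the large CACTA transposon TgmR* in the second intron of the *R* gene, which encodes an R2R3 MYB transcription factor. RM38-*r* is brown and homozygous for a recessive *r* allele with a single-base deletion. Each line rests on 1 isoline. Seed coats were dissected from the seeds, then frozen and lyophilized before total RNA was extracted.

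The soybean seed coat is maternal tissue that surrounds the embryo and passes sugars and amino acids to it while the seed fills. In pigmented seeds its outer layers store anthocyanins and proanthocyanidins. Both are flavonoids whose earlier enzymes, from chalcone synthase on, are shared. Glucosyltransferases and methyltransferases finish the anthocyanins, whereas anthocyanidin reductase directs the chain to proanthocyanidins. At the end of filling the seed coat loses water and becomes the dry hull of the mature seed.

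The values are RPKM, a read count scaled to the length of the gene model and to the depth of its library. The 6 libraries held 58305150 to 88820963 mapped alignments each, with both desiccating libraries at the low end (58305150 in R110 and 58800256 in R112). A group of 28 gene models named Glyma13g118 or Glyma13g119 took 19.1% of the summed RPKM in R113 and 0.66 to 4.30% in the other 5 libraries. They were left out, and factors from 0.953 to 1.15 then brought the 75th percentile of every library to the same value. All RPKM values given here are rescaled. The table used here ends within a line and holds its gene models in no order of names, so that shares of RPKM and counts cover the models it holds. Names were known only for genes that the study names. The deposited table gives Glyma1 identifiers without products, so that markers of cotyledon, green tissue and drying could not be checked. The pathway genes of the seed coat were detected in all 6 libraries, with a summed RPKM of 190.2 to 500.3 at 400–500 mg and of 114 (R110) and 67.6 (R112) in desiccating seed coats.

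Of the expressed gene models, 31.3% changed in this step, and more fell than rose. Of 40166 gene models with at least 0.5 RPKM in 2 libraries, 5358 rose (13.3%) and 7229 fell (18.0%) in desiccating against 400–500 mg seed coats, with the line as a covariate (limma, two-sided, Benjamini-Hochberg adjusted p under 0.05). The models that rose came from 4440 loci and those that fell from 5873. The median change was 2.07-fold among the models that rose and 1.77-fold among those that fell. Of the models that rose, 626 were under 0.5 RPKM in all 4 libraries of 400–500 mg and passed the filter only through the desiccating libraries. Without them the median of the other 4732 was 2.01-fold. A change of at least 4-fold was reached by 929 models that rose (2.31% of those tested) and by 382 that fell (0.951%). By more than 4 units of log2, 100 models rose but 12 fell. The 626 models were not taken out of these counts. In bulk tissue, fewer cells of a type and less RNA per cell cannot be told apart.

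These counts rest on both desiccating libraries. Without R110, 1426 models rose and 1521 fell. Without R112, 0 models rose or fell by limma's adjusted p, while 3434 were higher and 4732 lower at an unadjusted p under 0.05. Without any 1 of the 400–500 mg libraries, 4219 to 4835 models rose and 4915 to 6045 fell. The 626 models above were not tested in the fits without R110 or without R112.

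**Figure D1:**
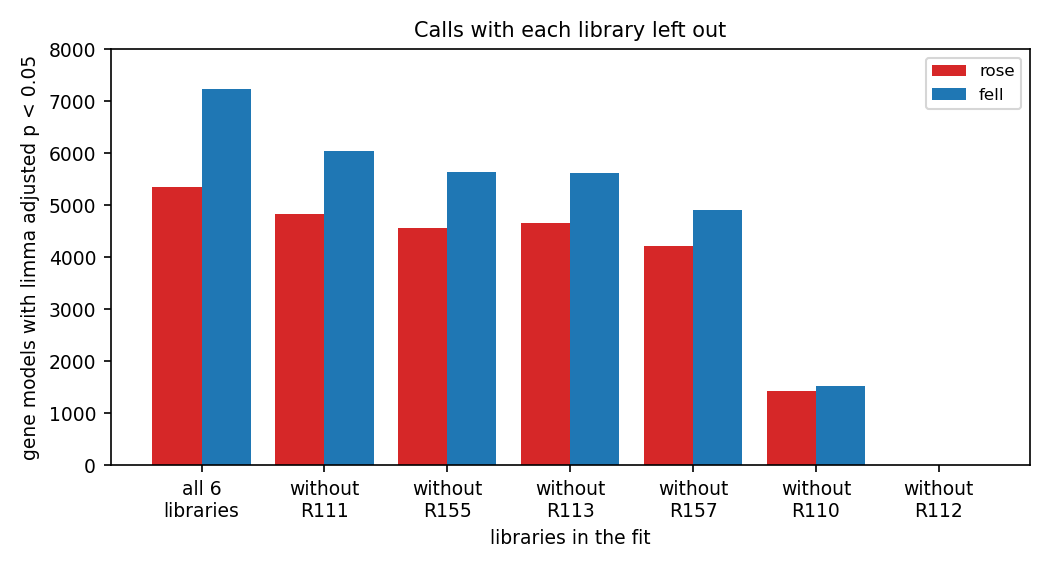
Number of gene models that rose (red) or fell (blue) in desiccating against 400–500 mg seed coats with a limma adjusted p under 0.05, with all 6 libraries and with each left out. The bars stand at 5358 and 7229 with all libraries, at 1426 and 1521 without R110, and at 0 without R112.

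The libraries also carry numbers of different series. R110 to R113 have neighbouring numbers, whereas R155 and R157 do not, and what the numbers stand for is not given. Replicates at 400–500 mg differed with them. The median absolute log2 difference was 0.24 between R111 and R155 and 0.24 between R113 and R157, but 0.11 between R111 and R113 and 0.16 between R155 and R157, which are of different lines. Within R110 to R113 alone, 6000 models rose (15.3%) and 7750 fell (19.8%). This fit, also used below, has no replicates within a line and stage, so that its spread is only the difference of the changes between the lines.

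Most of the anthocyanin pathway genes analysed were lower in desiccating seed coats. Of the 13 pathway genes the study lists that were analysed here, 9 fell, 0 rose and 4 did not pass the test, against 18.0% of all gene models that fell. Their median log2 change was −1.71, and that of all gene models was −0.10. The same 9 genes lay below both 400–500 mg libraries of their line in both lines, as did 39.6% of all gene models. *CHI2*, *ANR1* and *ANR2* were not analysed here. Similar genes among the 13 can share reads, as said for them below, so that these counts are not of independent genes. Within R110 to R113 alone, 9 of the 13 also fell. Without R110, 3 passed the test (*F3′H*, *DFR1* and *UGT78K2*), and without R112, 0 did.

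**Figure D2:**
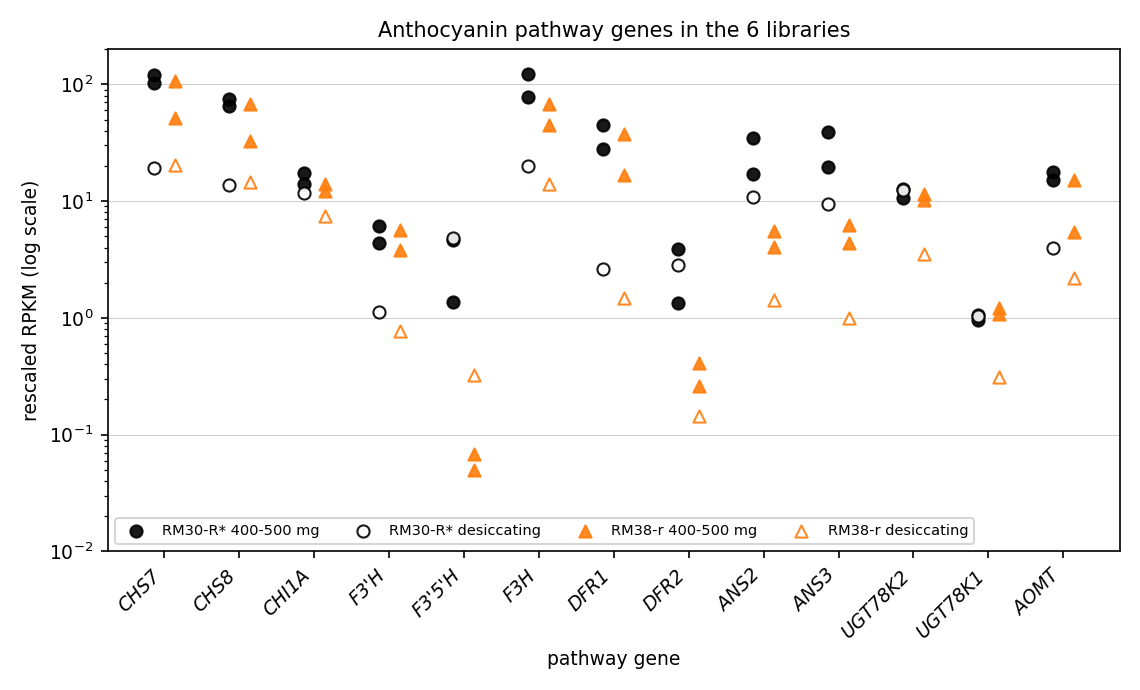
Rescaled RPKM (log scale) of the 13 pathway genes in the 6 libraries. Circles are RM30-R* and triangles RM38-*r*, filled at 400–500 mg (2 libraries per line) and open for desiccating seed coats (1 library per line). The open symbols lie below the filled ones of the same line for 9 genes, whereas those of *UGT78K2* and *UGT78K1* lie between them in RM30-R* and below them in RM38-*r*.

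*CHS7* and *CHS8* encode chalcone synthases, the entry enzymes of flavonoid synthesis. *CHS7* (Glyma01g43880.1, chromosome 1) had 121 and 102 RPKM in RM30-R* at 400–500 mg and 19.3 RPKM in desiccating seed coats. In RM38-*r* it had 51.2 and 106 RPKM and then 20.2 RPKM. The desiccating libraries of the 2 lines were thus close to each other, although the 400–500 mg libraries of RM38-*r* differed from each other by more than those of RM30-R*. *CHS7* fell by 2.17 on the log2 scale (SE 0.32, limma adjusted p = 0.00765). *CHS8* (Glyma11g01350.1, chromosome 11) had 74.8, 64.8 and then 13.8 RPKM in RM30-R* and 32.8, 68.1 and then 14.5 RPKM in RM38-*r*, and fell by 1.99 (SE 0.31, limma adjusted p = 0.00899). Reads of the authors' counting can be shared between the *CHS* copies, so that these values may not be independent.

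The next enzymes are chalcone isomerase, which closes the flavanone ring, and flavanone 3-hydroxylase. The isomerase gene *CHI1A* (Glyma20g38560.1) had 17.4 and 14.1 RPKM and then 11.8 RPKM in RM30-R*, and 14.1 and 12.2 RPKM and then 7.53 RPKM in RM38-*r*. Its decrease was the smallest of the 9, by 0.58 (SE 0.15, limma adjusted p = 0.0337). The limma adjusted p was 0.0626 to 0.360 without R111, R113, R157, R110 or R112, so that this call rests on all of them. *F3H* (Glyma02g05450.1) had 123.1 and 77.7 RPKM and then 20.1 RPKM in RM30-R*, and 44.6 and 68.0 RPKM and then 14.1 RPKM in RM38-*r*. It fell by 2.09 (SE 0.26, limma adjusted p = 0.00495), to 0.200 and 0.251 of the 400–500 mg mean in RM30-R* and RM38-*r*. *CHI1A*, a gene of the step between *CHS7* and *F3H*, stood at 0.747 and 0.572 of its own mean. The other isomerase gene of the study, *CHI2*, was not analysed here, and the study lists it as lower in desiccating seed coats of both lines. The values of *CHI1A* thus do not describe the whole step.

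The hydroxylases of the B-ring set whether cyanidin or delphinidin type pigments form. *F3′H* (Glyma06g21920.1), which gives the cyanidin type, had 4.36 and 6.07 RPKM and then 1.13 RPKM in RM30-R*, and 3.83 and 5.64 RPKM and then 0.768 RPKM in RM38-*r*. It fell by 1.91 (SE 0.21, limma adjusted p = 0.00404). *F3′5′H* (Glyma13g04210.1), which gives the delphinidin type, did not follow it. It had 4.61 and 1.37 RPKM and then 4.82 RPKM in RM30-R*, and 0.0502 and 0.0676 RPKM, from 5 and 8 reads, and then 0.327 RPKM in RM38-*r*, from 30 reads (95% Wilson interval 0.229 to 0.467). Its desiccating libraries lay above both 400–500 mg libraries in both lines, as did those of 26.8% of all gene models. In RM30-R* the distance was smaller than that between the replicates, and the log2 change of 0.67 did not pass the test (SE 0.39, limma adjusted p = 0.235). Intervals here and below cover counting error only.

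The 2 dihydroflavonol reductase genes, whose product makes the colourless leucoanthocyanidins, also differed. *DFR1* (Glyma14g07940.1) had the largest decrease of the pathway. It had 45.2 and 27.9 RPKM and then 2.61 RPKM in RM30-R*, a 14.0-fold decrease of the mean of 36.6 ± 12.2 RPKM (SD, n = 2). In RM38-*r* it had 16.9 and 37.6 RPKM and then 1.48 RPKM, an 18.4-fold decrease of the mean of 27.2 ± 14.6 RPKM (SD, n = 2). The log2 change was −3.62 (SE 0.35, limma adjusted p = 0.00302). *DFR2* (Glyma17g37060.1) had 3.87 and 1.35 RPKM and then 2.84 RPKM in RM30-R*, between its replicates, and 0.407 and 0.262 RPKM and then 0.143 RPKM in RM38-*r*, from 11 reads (0.0799 to 0.256). Its log2 change was −0.07 (SE 0.37, limma adjusted p = 0.902). *DFR1* was above *DFR2* in all 6 libraries but one: in desiccating RM30-R* seed coats they stood at 2.61 and 2.84 RPKM.

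Anthocyanidin synthase forms the coloured anthocyanidins. *ANS2* (Glyma01g42350.1) had 35.0 and 17.2 RPKM and then 10.9 RPKM in RM30-R*, and 4.01 and 5.57 RPKM and then 1.43 RPKM in RM38-*r*. *ANS3* (Glyma11g03010.1) had 39.3 and 19.5 RPKM and then 9.51 RPKM in RM30-R*, and 4.35 and 6.20 RPKM and then 1.00 RPKM in RM38-*r*. Every desiccating value was below both replicates of its line. The study describes the transcripts of both genes as highly similar. Reads can thus be shared here too, and the values may not be independent. *ANS2* fell by 1.29 (SE 0.30, limma adjusted p = 0.0256) and *ANS3* by 1.71 (SE 0.31, limma adjusted p = 0.0127). The limma adjusted p of *ANS2* was 0.0669 in a fit to all 14 libraries and 0.0555 without R157. The black line kept the higher level, with 7.62 times the *ANS2* and 9.49 times the *ANS3* level of the brown line in desiccating seed coats, against 5.44 and 5.57 times at 400–500 mg. The difference of the decreases between the lines, tested as an interaction of line and stage, was −0.30 (SE 0.67) for *ANS2* and −0.43 (SE 0.67) for *ANS3*, with a limma adjusted p of 1.0 for both.

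The last genes modify the finished pigment. *AOMT* (Glyma05g36210.1), which encodes an anthocyanin O-methyltransferase, had 17.6 and 15.2 RPKM and then 3.98 RPKM in RM30-R*, and 5.49 and 15.2 RPKM and then 2.21 RPKM in RM38-*r*. It fell by 1.88 (SE 0.37, limma adjusted p = 0.0161). The UDP-glucosyltransferase genes *UGT78K2* (Glyma08g07130.1) and *UGT78K1* (Glyma07g30180.1) were not lower in desiccating RM30-R* seed coats. *UGT78K2* had 12.6 and 10.7 RPKM and then 12.4 RPKM in RM30-R*, but 11.4 and 10.2 RPKM and then 3.56 RPKM in RM38-*r*. *UGT78K1* had 0.962 and 1.06 RPKM and then 1.03 RPKM in RM30-R*, and 1.08 and 1.21 RPKM and then 0.310 RPKM in RM38-*r*, from 31 reads (0.219 to 0.441). Both desiccating RM30-R* values thus lay between the replicates of their line, and both RM38-*r* values lay below theirs. The interaction was −1.56 for *UGT78K2* (SE 0.27) and −1.04 for *UGT78K1* (SE 0.32), with unadjusted limma p of 0.00299 and 0.0266, and with a limma adjusted p of 1.0 for both. It did not pass the test over all gene models. Reads can be shared between these genes also.

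The *R* gene itself is listed under its earlier model Glyma09g36990.1 on chromosome 9, with few reads. It had 1.05 RPKM (95% Wilson interval 0.794 to 1.40) and 0.365 RPKM (0.217 to 0.612) in RM30-R* at 400–500 mg and 0.335 RPKM (0.182 to 0.617) in desiccating seed coats. In RM38-*r* it had 2.52 RPKM (2.04 to 3.12) and 3.54 RPKM (3.00 to 4.18) and then 0.881 RPKM (0.606 to 1.28). Both desiccating values were the lowest of the 3 libraries compared in their line, but in RM30-R* the interval overlapped that of R155. The log2 change of −0.91 did not pass the test (SE 0.33, limma adjusted p = 0.0849). Within R110 to R113 alone it was −1.01 and did (limma adjusted p = 0.0198), as it did without R155 (−1.15, limma adjusted p = 0.0236). The transposase-related models Glyma05g23600.1 and Glyma15g21480.1 had 1.07 to 1.71 RPKM and 0.961 to 1.35 RPKM in the 6 libraries and log2 changes of −0.29 and −0.18 (limma adjusted p = 0.187 and 0.387).

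The changes of black and brown seed coats went together. The lines share no library, and across all 40166 gene models their log2 changes correlated with a Pearson's r of 0.897 and a Spearman's rho of 0.873, a description across genes, which are not independent replicates. The lines do share the number series: each has 1 library of 400–500 mg from either series, and the difference between these libraries correlated between the lines at 0.607. With R111 and R113 alone at 400–500 mg r was 0.867, and with R155 and R157 alone 0.875, a choice made after the data were seen. Of the 834 models that were at least 4-fold higher in desiccating RM30-R* seed coats, 833 were also higher in RM38-*r*, and 713 (85.5%) by at least 4-fold. Of the 331 that were at least 4-fold lower in RM30-R*, all 331 were also lower in RM38-*r*, and 214 (64.7%) by at least 4-fold. Taken from RM38-*r*, the line with the wider shift, fewer were shared. Of its 1114 models at least 4-fold higher, 1113 were also higher in RM30-R*, but 713 (64.0%) by at least 4-fold. Of its 712 at least 4-fold lower, 704 were also lower in RM30-R*, but 214 (30.1%) by at least 4-fold. The change in each line uses its own libraries only, but the filter uses those of both lines. Under 0.5 RPKM in all 4 libraries of 400–500 mg were 717 tested models, which passed it only through both desiccating libraries. These were thus higher in both lines by the filter, and they were not taken out of the correlations or of the counts of higher models. Models that moved outside the range of their replicates upward in one line and downward in the other numbered 1549 (3.86%).

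**Figure D3:**
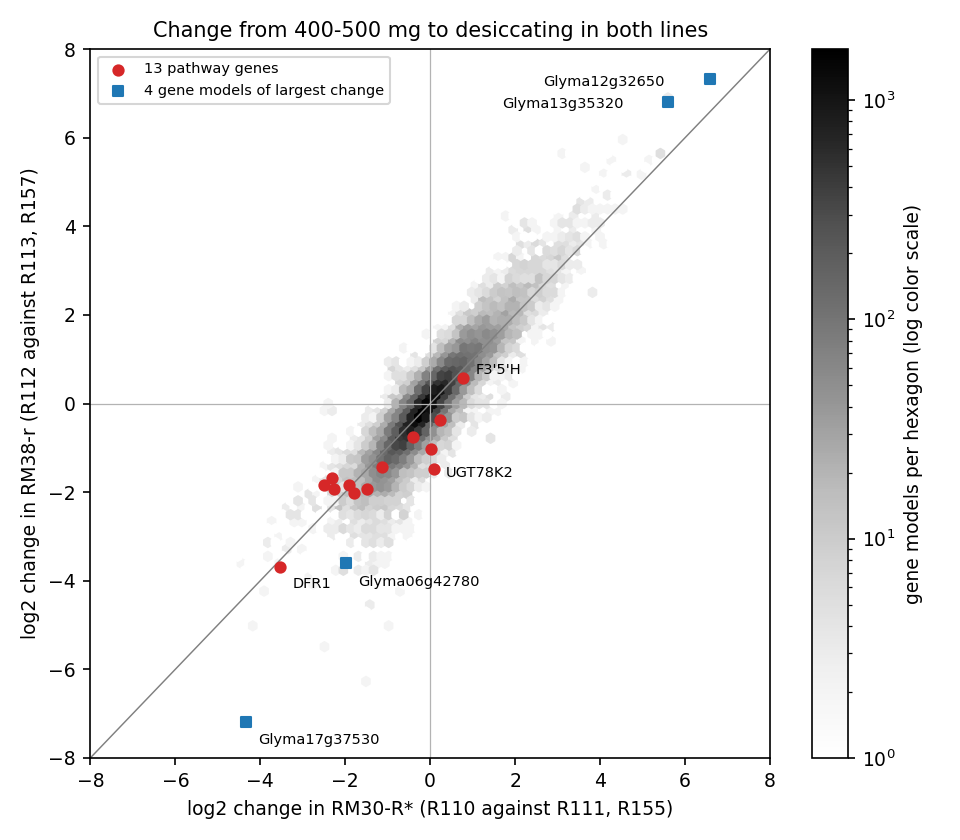
Log2 change from 400–500 mg to desiccating seed coats in RM30-R* (x axis) and RM38-*r* (y axis) of the 40166 gene models tested, shaded by the number of models per hexagon on a log color scale. Red points are the 13 pathway genes, blue squares the 4 unnamed models described in the text, and the diagonal marks equal change. Most models lie along the diagonal, on the steeper side of it, and *UGT78K2* lies at 0.08 in RM30-R* and −1.47 in RM38-*r*.

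The shift was wider in RM38-*r*. The SD of the log2 changes over all gene models was 0.926 in RM38-*r* and 0.768 in RM30-R*. The change was larger in RM38-*r* for 71.7% of the models that rose and for 75.8% of those that fell, with median log2 changes of 1.14 against 0.95 and of −0.91 against −0.73. R112 correlated with the 400–500 mg libraries at 0.827 to 0.861 and R110 at 0.882 to 0.910. Each line has 1 desiccating library, so that the line and how far the seeds of that library had dried cannot be told apart. By limma's adjusted p, the interaction of line and stage was called for 0 of 40166 gene models. At an unadjusted p under 0.05 it was called for 784, a smaller share than the nominal 0.05 of this threshold. The spread of this fit comes only from the pairs of libraries at 400–500 mg, with 2 residual degrees of freedom. The differences within these pairs correlated between the lines at 0.607. Such a shared difference widens the spread but cancels in the interaction. The low share thus cannot show that the lines shifted alike.

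The RNA pool itself turned over. Models that rose held 8.29 to 9.01% of the summed RPKM in the 400–500 mg libraries, and 22.4% in R110 and 27.6% in R112. Models that fell went from 19.2 to 24.6% down to 11.8% in R110 and 9.03% in R112. These models were chosen by the same change, so that the shares are a description of its size. Of the 1373 models with at least 50 RPKM in all 4 libraries of 400–500 mg, which were chosen by a high level there, 390 fell and 102 rose. Of all tested models, 18.0% fell and 13.3% rose. No model with at least 5 RPKM in all 4 of them was under 0.5 RPKM in both desiccating libraries, and 3 with at least 1 RPKM in all 4 had 0 reads in both. In the other direction, 38 models went from under 0.5 RPKM in all 4 to at least 5 RPKM in both desiccating libraries. There were 7 models with 0 reads in all 4 libraries and at least 1 RPKM in both desiccating libraries, at most 9.89 RPKM. All 7 had 0 reads also in the 8 libraries of earlier stages.

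The models with the largest changes are known only by identifier, and 2 per direction are given, chosen by size after the values were seen. Glyma12g32650.1 on chromosome 12 had the largest log2 increase. It had 0.192 and 4.43 RPKM in RM30-R* and 0.412 and 0.202 RPKM in RM38-*r* at 400–500 mg, and 178 and 128 RPKM in the desiccating libraries, a log2 change of 6.96 (SE 0.75, limma adjusted p = 0.00383). It was almost silent before, with at most 0.0258 RPKM in the 8 libraries of earlier stages. Glyma13g35320.1 on chromosome 13 had the largest increase in RPKM. It had 61.5 and 224 RPKM in RM30-R* and 61.6 and 101.2 RPKM in RM38-*r*, and then 5751 and 8893 RPKM, a log2 change of 6.21 (SE 0.59, limma adjusted p = 0.00291). With its other 2 models, which share its reads or resemble it, this locus made up 2.47% of the summed RPKM in R110 and 3.83% in R112, and 0.0253 to 0.097% in the 400–500 mg libraries.

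Among the models that fell, Glyma17g37530.1 on chromosome 17 had the largest log2 decrease. It had 31.0 and 232 RPKM in RM30-R* and 67.6 and 179 RPKM in RM38-*r*, and then 3.71 RPKM in R110 and 0.263 RPKM in R112, the latter from 9 reads. Its replicates differed widely, and every 400–500 mg value was still above both desiccating values. It fell by 5.76 (SE 1.01, limma adjusted p = 0.0117). Glyma06g42780.1 on chromosome 6 lost the most RPKM. It had 1020.1 and 1732 RPKM in RM30-R* and 1111 and 1225 RPKM in RM38-*r*, and then 334 and 94.8 RPKM, and fell by 2.80 (SE 0.45, limma adjusted p = 0.00923). The limma adjusted p of these 4 models was 0.0731 to 0.173 without R112.

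The same models were followed through the earlier stages. The models that rose had a median of 1.85 to 2.39 on the log2 scale in the 12 libraries before desiccation, and 3.24 in R110 and 3.46 in R112. The models that fell had 2.63 to 2.97 before and 1.99 and 1.74 then. Desiccating seed coats held the highest level of all stages in both lines for 4256 (79.4%) of the models that rose, and the lowest for 5547 (76.7%) of those that fell, against 16.1% and 22.3% of all tested models. Part of this is set by the choice of the models, which already differed from 400–500 mg. The remaining models include 159 that rose although both lines had a higher level at 100–200 mg, and 292 that fell although both had a lower level there.

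**Figure D4:**
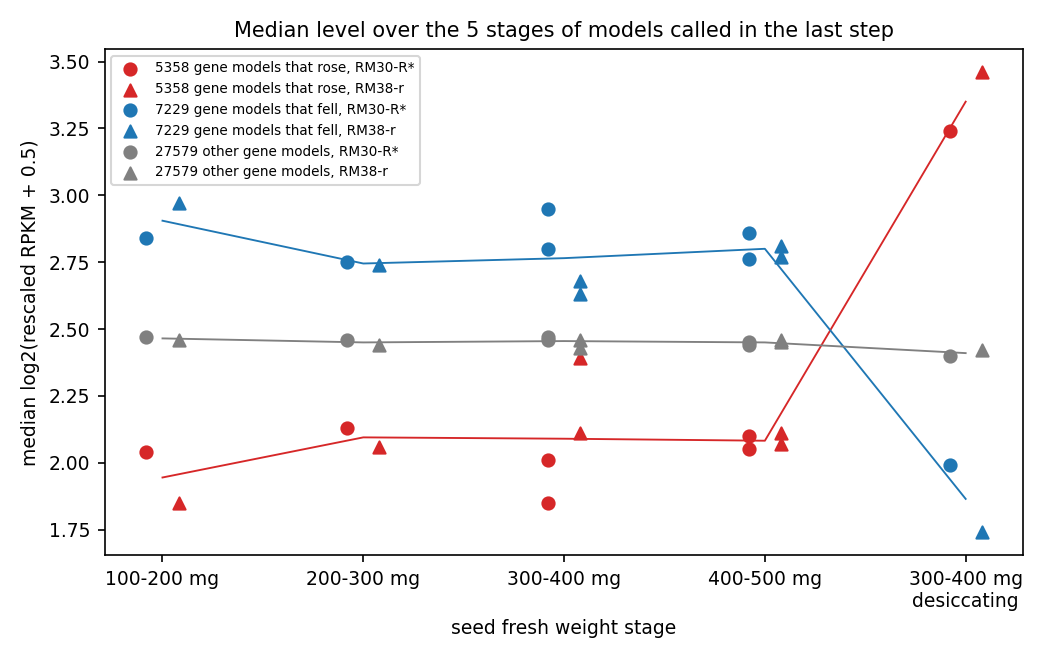
Median log2(rescaled RPKM + 0.5) over the 5 stages of the gene models that rose (red), fell (blue) or were not called (grey) between 400–500 mg and desiccation. Circles are RM30-R* and triangles RM38-*r* libraries, and lines join the stage means. Red and blue medians lie between 1.85 and 2.97 before desiccation and move to 3.24 and 3.46 and to 1.99 and 1.74 in it.

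The mean over both lines of the models that fell was highest at 100–200 mg for 3065 (42.4%) and at 400–500 mg for 2287 (31.6%), against 28.9% and 16.6% of all tested models. It could not be highest in desiccating seed coats, since the models were chosen for a decrease there. Of the pathway genes that fell, all but *CHI1A* were highest at 100–200 mg in both lines. Among them, *CHS7*, *F3′H* and *ANS3* had 512, 71.4 and 89.3 RPKM there in RM30-R*. For RM38-*r* these values were 519, 60.8 and 90.5 RPKM. *CHI1A* went the other way, with 5.46 RPKM at 100–200 mg against 11.8 RPKM in desiccating RM30-R* seed coats. Its RM38-*r* values at these stages were 7.48 and 7.53 RPKM.

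The shift was spread over the genome. Among the 20 chromosomes, the share of tested models that rose was 11.5% (chromosome 18) to 15.4% (chromosome 3), and the share that fell 15.3% (chromosome 9) to 20.8% (chromosome 19). Neighbouring loci shared a call somewhat more often than all loci, a difference that was not tested. With the first tested model of each locus in the order of names, and with loci that the table does not hold passed over, 18.8% of the loci next to one that rose also rose, against 13.5% of all loci, and 22% of those next to one that fell also fell, against 17.8% of all loci. The longest runs were 8 loci that rose, on chromosome 1, and 7 that fell, on chromosome 6. Models of 1 locus nearly always had the same call, in 5044 of 5275 loci with several tested models (95.6%), and 0 loci had models called in opposite directions, which is partly a matter of shared reads.

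The shift was also described by transcript length and level. Lengths recovered for 37693 of the tested models divided them at 886, 1364 and 1912 nt. In these 4 classes, from the shortest to the longest, the median log2 change was −0.12, −0.10, −0.07 and −0.10, the share that rose 12.7, 14.1, 15.1 and 12.1%, and the share that fell 15.8, 17.8, 18.7 and 20.3%. By mean RPKM, the share that fell was 13.5% under 1 RPKM, 18.8% from 1 to 5, 18.3% from 5 to 50 and 22% from 50 to 500 RPKM. The median log2 change of these classes was −0.16, −0.13, −0.06 and −0.15. The 73 models above 500 RPKM had a median of 0.26, with 0.28 in RM30-R* and −0.19 in RM38-*r*, and 5.48% of them fell and 12.3% rose. RNA quality was not measured in these files, and its part in the shift was not tested.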

How the data were processed

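Seed coat RNA was sequenced in 14 libraries, of which 6 entered this comparison. The authors deposited RPKM values. Single 100-nt reads had been mapped by Bowtie 1 onto the Glyma1 models with at most 3 mismatches, and a read was counted at each of its places if these were no more than 25. The table held 69425 complete gene models, and its incomplete last line was left out (1 line). Models beyond it were not analysed here. The columns of no sample numbered 0. Reads and lengths were recovered from the steps between low values for 95.6% of the 57140 models above 0 in at least 3 libraries, within 0.02 reads.

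Rescaled values were fitted as log2(RPKM + 0.5) with limma 3.58.1 in R 4.3.3, with line and stage as terms, 3 residual degrees of freedom and a variance trend. Changes on this scale understate those of low genes. Python 3.11.15 did the rest.

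Named genes are those the study lists. The rule also allowed the most changed models with a product name, of which there were 0, so 2 identifiers per direction were taken by the same order without that criterion. The other gene lists of the design had 0 members, since no product was paired with an identifier. Members and lists were chosen with earlier results of these data known.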

Additional observations from a re-analysis of the deposited data

How the results depend on the processing

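With each library left out in turn, 0 to 4835 gene models rose and 0 to 6045 fell, and 0 to 9 pathway genes fell. The lowest values came without R112, which leaves 1 desiccating library and assumes that it varies like the 400–500 mg libraries, and the next lowest without R110 (1426, 1521 and 3 genes). Under the other alternatives, all planned, 4358 to 6791 models rose and 5343 to 9564 fell, and 8 or 9 pathway genes fell. They comprised another pseudocount (0.1 or 1), another filter (none, or 1 RPKM in 2 libraries), deposited values, quantile normalization, the Glyma13g118 and Glyma13g119 loci kept, no trend, 1 model per locus, all 14 libraries, R110 to R113 alone, and the number series as a further term. In no alternative was a called model called in the other direction. The median of all gene models lay between −0.12 and −0.04. The interaction was called for 0 models in every alternative run, with a smallest adjusted p of 0.206 (no filter). The labels give no replicate numbers, so that libraries were not paired by label. The number series as a further term, the nearest to a block, gave 6791 and 9564. Depth limits values under about 0.1 RPKM, such as *F3′5′H* in RM38-*r*, where 3 reads correspond to 0.0253 to 0.0327 RPKM.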
